A study of Mus musculus with 12 samples.

Results

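The genes described here make, import or regulate the supply of cholesterol in microglia-like cells. They are 27 mouse genes taken by symbol: 8 enzymes of the mevalonate pathway, 11 enzymes that turn its product into sterols, the sterol carrier Stard4, and 7 genes of the SREBP control system. All 27 were among the 55416 gene identifiers counted, and all 27 passed the filter on low counts, which kept 26420 genes. The rule that names them uses gene symbols and no measured value, but the list was drawn up with earlier results of these data known.

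RNA was sequenced from SIM-A9, an established mouse microglial cell line whose strain the labels give as C57BL/6, and from a SIM-A9 line called H14 and described as MOK-KO. MOK is a serine/threonine kinase of the MAP kinase superfamily. Wild-type (WT) and H14 (KO) cells, all grown in DMEM-F12 with serum, glutamine, penicillin and streptomycin, received either medium alone or the bacterial endotoxin lipopolysaccharide (LPS) at 1 µg/mL for 5 h. Each of the 4 groups (WT medium, WT LPS, KO medium, KO LPS) has 3 libraries that the labels call biological replicates without saying how the cultures were separated, so the p-values below reflect only how much these samples varied, which may be technical. H14 is the 1 KO line sequenced, and in it the effects of MOK loss and of unrelated changes in the line cannot be told apart.

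Cholesterol is built from acetyl-CoA. The mevalonate pathway makes the isoprenoid farnesyl diphosphate, squalene synthase commits it to sterols, and a series of endoplasmic reticulum enzymes converts lanosterol to cholesterol. When membrane sterol is low, the escort protein SCAP carries the transcription factors SREBP-1 and SREBP-2 to the Golgi, where the site-1 and site-2 proteases release their active domains; when sterol is high, the INSIG proteins hold SCAP back. In microglia and macrophages, sterol synthesis is also known to respond to Toll-like receptor signalling, and LPS is a ligand of such a receptor.

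Libraries held between 39726866 and 72922794 counts, and the 27 genes together drew between 114596 and 243711 counts per library. Levels are given as CPM, counts scaled to the same library total, after TMM scaling, a correction for differences in library composition. Mok RNA was at 3.33, 3.52 and 3.21 CPM in WT medium and 2.24, 2.58 and 1.93 CPM in KO medium, and at 2.83, 2.17 and 2.50 CPM in WT LPS and 1.70, 1.54 and 1.32 CPM in KO LPS. The KO libraries were lower than the WT libraries of the same treatment without overlap, but Mok transcripts were still counted in all of them. The difference was -0.58 ± 0.19 on the log2 scale in medium (SE, edgeR adjusted p = 0.0501) and -0.72 ± 0.19 under LPS (edgeR adjusted p = 0.0177). Of 15 microglial markers 10 were at 1 CPM or more in every library, C1qa was below 1 CPM in all, and Itgam was at 18.9 to 27.6 CPM in WT but 2.48 to 3.89 CPM in KO libraries. The 4 oligodendrocyte markers summed to 9.05 to 11.3 CPM in WT medium, 6.35 to 6.46 in WT LPS, 20.4 to 22.2 in KO medium and 10.8 to 13.9 in KO LPS, nearly all of it Mbp, with Mog and Olig2 below 1 CPM in every library and Mog at 0 in some. The 2 T cell markers summed to 0.771 to 21.3 CPM, mostly Cd3e, with Cd3d below 1 CPM in all. Summed markers of astrocytes, neurons, fibroblasts, endothelium and B cells stayed at or under 4.84 CPM. Processed pseudogenes took 12.8% to 14.3% of the counts in KO medium, 6.58% to 13.0% in WT medium (13.0% in replicate 2), 6.27% to 7.05% in WT LPS and 6.64% to 7.35% in KO LPS. Identifiers with no symbol took 10.4% of counts in KO LPS replicate 2 and 4.88% to 8.18% elsewhere.

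The promoters of the synthesis genes carry sites through which the active SREBPs and their partner NF-Y, which binds CCAAT, are known to act. The 250 bases before the start of Hmgcs1 (ENSMUSG00000093930), Lss (ENSMUSG00000033105), Mvd (ENSMUSG00000006517) and Sc5d (ENSMUSG00000032018) are shown because, among the genes with a promoter window, these had the largest differences between the lines in medium. They come from the RefSeq table for GRCm38.p6, a different build from the one the reads were mapped to, and are written 5′ to 3′ on the gene's own strand. They lie at chr13:119690101-119690350 (plus strand) for Hmgcs1, chr10:76531355-76531604 (plus strand) for Lss, chr8:122443423-122443672 (minus strand) for Mvd and chr9:42264301-42264550 (minus strand) for Sc5d. Capitals mark CCAAT or its complement ATTGG and, in Hmgcs1 alone, TCACCCCAC, a match to the sterol regulatory element letters TCACNCCAC.
Hmgcs1: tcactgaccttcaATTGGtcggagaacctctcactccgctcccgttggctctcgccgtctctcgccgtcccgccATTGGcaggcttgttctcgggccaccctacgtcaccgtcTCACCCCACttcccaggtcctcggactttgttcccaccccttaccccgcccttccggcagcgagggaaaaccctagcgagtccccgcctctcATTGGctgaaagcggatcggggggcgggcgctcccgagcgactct
Lss: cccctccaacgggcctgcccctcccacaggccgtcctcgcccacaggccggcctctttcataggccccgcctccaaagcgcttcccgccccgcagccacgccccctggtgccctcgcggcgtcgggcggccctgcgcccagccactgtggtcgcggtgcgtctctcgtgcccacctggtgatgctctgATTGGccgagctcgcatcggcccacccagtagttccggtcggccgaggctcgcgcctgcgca
Mvd: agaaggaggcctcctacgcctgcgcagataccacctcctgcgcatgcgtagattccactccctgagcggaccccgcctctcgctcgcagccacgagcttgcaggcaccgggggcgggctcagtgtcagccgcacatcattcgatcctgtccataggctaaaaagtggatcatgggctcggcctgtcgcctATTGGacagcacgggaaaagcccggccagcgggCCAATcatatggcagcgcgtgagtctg
Sc5d: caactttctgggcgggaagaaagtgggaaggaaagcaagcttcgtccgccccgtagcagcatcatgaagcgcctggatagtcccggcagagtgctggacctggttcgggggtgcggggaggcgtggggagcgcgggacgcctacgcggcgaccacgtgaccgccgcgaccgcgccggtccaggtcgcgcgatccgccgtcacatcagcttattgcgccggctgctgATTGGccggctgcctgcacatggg

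The Hmgcs1 window holds 3 CCAAT matches, and its TCACCCCAC match ends 129 bases before the start. The Mvd window holds 2 CCAAT matches, and the Lss and Sc5d windows hold 1 each. Windows were found for 23 of the 27 genes, 31 windows in all, some of which overlap because a gene can have several starts. CCAAT, searched on both strands, was in 20 of the 31 windows (64.5%), against 33.9% of the 32851 windows in the table. GGGCGG, the core of the GC box bound by Sp1, was in 23 of 31 (74.2%) against 32.7% of all windows, and TCACNCCAC was in 1 of 31 (3.23%) against 1.05%. The marked matches do not overlap in the 4 windows shown, and a match is a description of letters, not a bound site.

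Among these genes, levels can be compared only per length, here as CPM per kilobase of the longest annotated transcript, and the order depends on the length chosen. By that length, in WT cells in medium, the transcription factor gene Srebf2 stood highest at 103.3 ± 9.26 CPM per kb (SD, n = 3), followed by the isomerase Idi1 at 98.7 ± 7.88, the acetoacetyl-CoA thiolase Acat2 at 84.9 ± 6.96 and the HMG-CoA synthase Hmgcs1 at 83.4 ± 9.57; Srebf2 and Idi1 differed by less than their SD, as did Acat2 and Hmgcs1. The sterol 14-demethylase Cyp51 (67.1 ± 5.20), the squalene epoxidase Sqle (64.0 ± 2.98) and Insig1 (63.4 ± 6.80) formed the next level and also lay within their SDs of each other. Tm7sf2, which encodes a sterol C14 reductase, was lowest at 1.39 CPM per kb and was counted only 50 to 259 times per library. Per kilobase of all annotated exons joined, Idi1 stood first in WT medium at 85.3 ± 6.81, followed by Acat2 at 75.1 ± 6.15 and Srebf2 at 73.0 ± 6.54 CPM per kb, the latter pair within their SDs. In KO medium Srebf2 stood first by either length (103.2 CPM per kb of the longest transcript and 72.9 of joined exons). By the longest transcript, Idi1 stood at 62.1 and Hmgcs1 went from the fourth place in WT medium to rank 8 in KO medium at 44.6 ± 5.34. Stard4 went from 15.6 CPM per kb and rank 18 in WT medium to 3.35 ± 0.50 and rank 26 in KO medium.

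**Figure D1:**
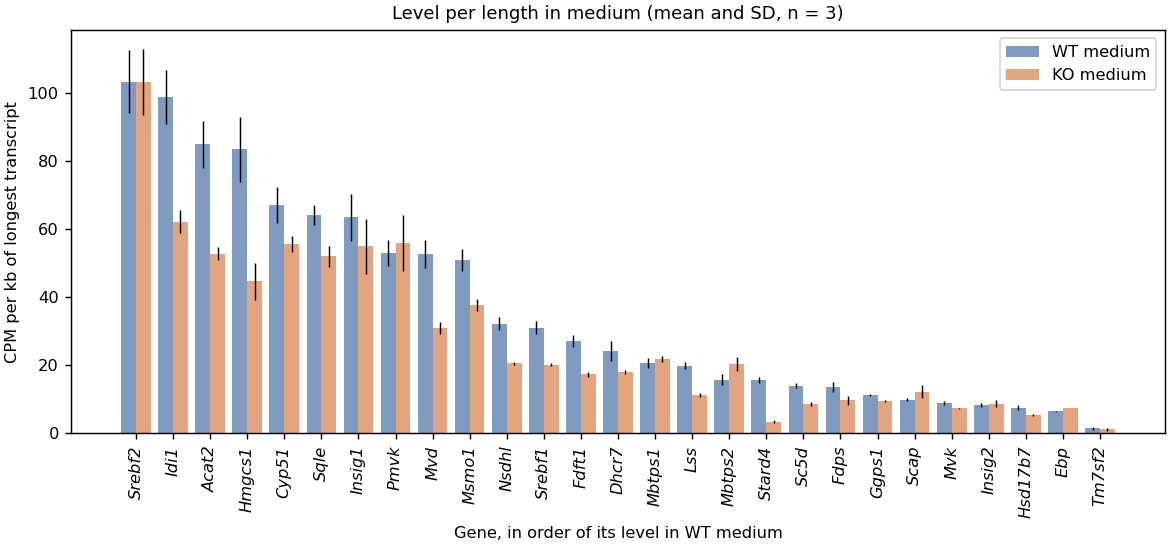
Level per length of the 27 genes in WT medium and KO medium, as bars of mean CPM per kilobase of the longest transcript with SD (n = 3), on a linear axis from 0 and ordered by the WT level. The Srebf2 bars stand at 103.3 and 103.2, and Stard4 drops from 15.6 to 3.35.

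The first comparison asked how the KO line differed from WT in unstimulated cells. Cholesterol synthesis genes were lower in KO cells almost throughout: summed over the 19 enzymes, the level was 2240 ± 156 CPM in WT medium and 1552 ± 55.6 CPM in KO medium (SD, n = 3 each), with library ranges of 2113 to 2414 and 1509 to 1615 that did not overlap. By edgeR's quasi-likelihood test, with p-values adjusted by Benjamini-Hochberg over all 26420 genes and called under 0.05, 18 of the 27 genes were lower and 1 was higher in KO, where 12.3% of all genes tested were lower and 6.88% higher. Among protein-coding genes, the class of all 27, 17.2% were lower and 7.67% higher. The median log2 fold change of the 27 was -0.43, against 0.04 for all genes tested and -0.04 for protein-coding genes. For 18 genes every KO library lay below every WT library, a state that 19.6% of all genes showed, and for 3 (Ebp, Scap and Mbtps2) every KO library lay above, against 16.0% of all genes. Among the 16152 protein-coding genes, 4166 were lower and 2517 higher without overlap. In bulk RNA, fewer cells expressing a gene and less RNA per cell cannot be told apart.

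Of the 8 mevalonate pathway enzymes 7 were lower. Hmgcs1, which condenses acetyl-CoA with acetoacetyl-CoA, was at 326, 262 and 279 CPM in WT medium and at 153, 137 and 174 CPM in KO medium. The lowest WT library stood far above the highest KO library, and the log2 fold change was -0.90 ± 0.12 (SE), a 1.87-fold lower level (edgeR adjusted p = 0.000296). Mvd, the mevalonate diphosphate decarboxylase, was at 103, 88.4 and 98.3 CPM in WT and 53.5, 59.9 and 55.7 CPM in KO, a log2 fold change of -0.78 ± 0.10 (edgeR adjusted p = 0.000229). Acat2, which makes acetoacetyl-CoA at the start of the pathway, was at 208, 178 and 187 CPM against 115, 123 and 119 CPM (-0.68 ± 0.09, edgeR adjusted p = 0.000319). The libraries of each group were close together for both genes. Idi1, which makes the reactive isoprenoid unit, fell from 326, 287 and 284 CPM to 176, 195 and 193 CPM (-0.67 ± 0.10, edgeR adjusted p = 0.000664). Fdps, the farnesyl diphosphate synthase, was at 39.3, 36.5 and 44.2 CPM against 24.8, 32.8 and 27.9 CPM (-0.49 ± 0.13, edgeR adjusted p = 0.0184). The smaller differences were those of the mevalonate kinase Mvk (-0.29 ± 0.08, edgeR adjusted p = 0.0249) and of Ggps1, which makes the geranylgeranyl donor for protein prenylation (-0.25 ± 0.06, edgeR adjusted p = 0.0131). Pmvk, the phosphomevalonate kinase, was at 65.1, 58.0 and 66.5 CPM in WT and 69.8, 55.7 and 74.9 CPM in KO; its log2 difference of 0.08 had a 95% interval from -0.21 to 0.37. Among the mevalonate genes, 43.8% of the 31-base words of Acat2, 27.9% of those of Fdps and 27.1% of those of Idi1 also occur in other annotated genes (Acat3, Gm43738 and the processed pseudogene Gm13502 among them), so the counting could have divided their reads. Hmgcs1 shares 13.1%, chiefly with Gm48342 on the opposite strand; the libraries are stranded, but whether the counting used strand is not given in any source used here.

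From squalene synthesis to cholesterol, 9 of 11 enzymes were lower. Lss, the lanosterol synthase that closes the sterol rings, had the largest difference of this group, from 145, 131 and 139 CPM in WT to 73.5, 81.2 and 81.8 CPM in KO (-0.81 ± 0.08, edgeR adjusted p = 3.79e-05). Sc5d, the lathosterol 5-desaturase, was at 70.6, 63.3 and 65.7 CPM against 39.3, 43.6 and 39.0 CPM (-0.71 ± 0.09, edgeR adjusted p = 0.000266). In both, the KO libraries lay well below all WT libraries. Fdft1, the squalene synthase, was at 107, 94.9 and 98.7 CPM against 63.3, 61.3 and 67.1 CPM (-0.65 ± 0.08, edgeR adjusted p = 0.000127). Nsdhl, a dehydrogenase of the C4 demethylation complex, was at 72.3, 64.8 and 71.8 CPM against 45.3, 44.9 and 43.0 CPM (-0.65 ± 0.07, edgeR adjusted p = 4.25e-05). Of the 31-base words of Fdft1, 31.9% occur in other genes, among them Ctsb on the opposite strand. The partners of Nsdhl in the C4 demethylation complex, the methyl oxidase Msmo1 (-0.43 ± 0.07, edgeR adjusted p = 0.00114) and the ketoreductase Hsd17b7 (-0.46 ± 0.10, edgeR adjusted p = 0.00743), were lower too. So were Dhcr7, the last reductase before cholesterol (-0.43 ± 0.10, edgeR adjusted p = 0.013), Sqle (-0.30 ± 0.08, edgeR adjusted p = 0.0205) and Cyp51 (-0.27 ± 0.08, edgeR adjusted p = 0.0388). Both exceptions are steps of sterol ring processing. The isomerase Ebp was at 11.0, 11.3 and 11.4 CPM in WT and 13.0, 12.8 and 12.9 CPM in KO, higher in each KO library but short of the threshold (0.20 ± 0.09, edgeR adjusted p = 0.142). Tm7sf2, at 2.14 to 5.60 CPM over both groups, could not be resolved (95% interval -0.97 to 0.37).

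The largest difference of all belonged to Stard4, a soluble carrier that moves cholesterol between membranes and is a known SREBP target. Its level was 83.7, 75.1 and 79.2 CPM in WT medium and 17.4, 14.4 and 19.4 CPM in KO medium. The KO level was 4.64-fold lower (log2 fold change -2.21 ± 0.12, edgeR adjusted p = 4.13e-07), and 1.52% of all genes tested had a lower log2 fold change.

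The SREBP control genes did not follow the enzymes as a group, with 1 of 7 lower, 1 higher and a median log2 fold change of 0.06. Srebf1, which encodes SREBP-1 and is itself induced by SREBP and by the oxysterol receptor LXR, was lower: 136, 124 and 139.7 CPM in WT and 84.5, 86.0 and 88.0 CPM in KO (-0.63 ± 0.09, edgeR adjusted p = 0.000593). Srebf2, which encodes the factor that mainly drives cholesterol synthesis, was at 567, 474 and 532 CPM in WT and 553, 467 and 551 CPM in KO, overlapping ranges with a log2 difference whose 95% interval ran from -0.27 to 0.27. Mbtps2, the site-2 protease, was higher at 102, 86.1 and 103 CPM against 83.0, 67.7 and 74.3 CPM (0.37 ± 0.10, edgeR adjusted p = 0.0205). Of its 31-base words 31.3% are shared with other genes, among them Yy2 on the same strand. Scap was at 47.4, 60.6 and 46.3 CPM in KO and 42.3, 39.8 and 43.1 CPM in WT, without overlap but short of the threshold (edgeR adjusted p = 0.0833). Insig1 (-0.21 ± 0.12), Insig2 (0.06 ± 0.22) and the site-1 protease Mbtps1 (0.07 ± 0.08) overlapped between the lines.

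**Figure D2:**
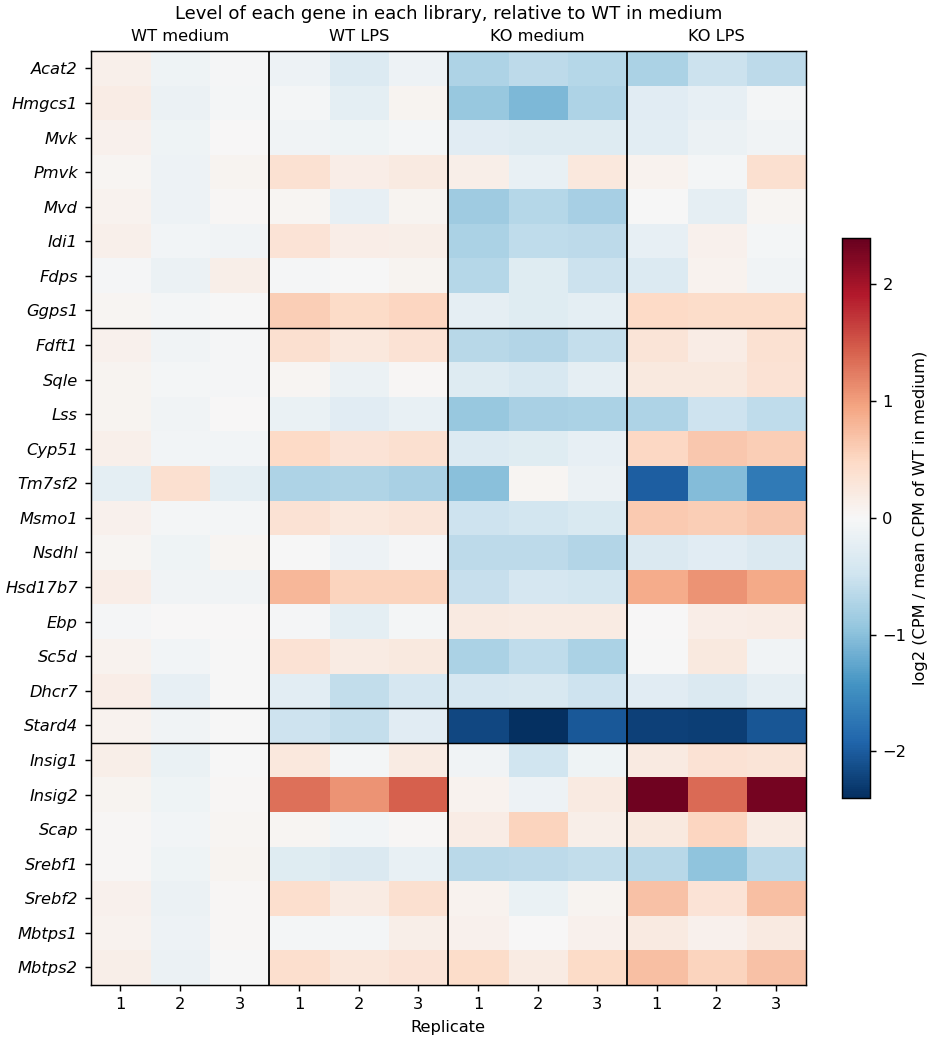
Level of the 27 genes in each of the 12 libraries, as log2 of CPM over the gene's mean CPM in WT medium, with rows grouped by role. Blue is lower and red higher than WT medium: the KO medium columns are blue for most enzymes, Stard4 is the darkest blue in both KO groups, and Insig2 is the darkest red in the LPS groups.

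The share of counts in processed pseudogenes, which was higher in KO medium than in most other libraries, moved with this comparison. With that share as a covariate, 11 of the 18 genes stayed lower and the calls of Cyp51, Dhcr7, Fdps, Ggps1, Hsd17b7, Mvk and Sqle were lost, as was that of Mbtps2. Over all genes that fit called 6.75% lower and 2.11% higher, against 12.3% and 6.88% without the covariate. Leaving out single libraries left 16 to 18 genes lower; Fdps was lost without WT medium replicate 3, KO medium replicate 1 or KO medium replicate 3, and Mvk and Cyp51 were lost in several of these fits.

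LPS in WT cells gave no common direction. Of the 27 genes 8 were higher and 3 lower than in WT medium, where 16.3% of all genes tested were higher and 16.3% lower. The groups did not overlap for 11 higher genes (24.0% of all genes) and 7 lower ones (19.0%), and the median log2 fold change of the 27 was 0.01 (-0.07 over all genes), or -0.32 with libraries scaled by size alone, which moved the median of all genes to -0.40. Summed over the 19 enzymes the level was 2412 ± 140 CPM with LPS and 2240 ± 156 CPM without, and the library ranges overlapped (2260 to 2536 against 2113 to 2414). Insig2, the sterol-sensing retention protein less tied to SREBP activity than its paralogue, had the largest change, from 23.2, 20.8 and 22.6 CPM to 55.3, 47.1 and 59.9 CPM (1.29 ± 0.22, edgeR adjusted p = 0.00109). Hsd17b7 rose from 38.5, 32.6 and 32.5 CPM to 60.0, 49.9 and 50.1 CPM (0.63 ± 0.10, edgeR adjusted p = 0.000609), and Ggps1 from 48.7, 46.0 and 47.0 CPM to 70.9, 65.1 and 67.4 CPM (0.52 ± 0.06, edgeR adjusted p = 4.68e-05). These 3 genes rose in every WT LPS library beyond every WT medium library, and each stayed called under all the alternatives tried.

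Cyp51 (0.40 ± 0.08, edgeR adjusted p = 0.00371) was also higher with LPS in WT cells, a call lost when libraries were scaled by size alone (0.06, edgeR adjusted p = 0.502). So were Fdft1 (0.33 ± 0.08, edgeR adjusted p = 0.00754), Mbtps2 (0.33 ± 0.10, edgeR adjusted p = 0.0235), Msmo1 (0.29 ± 0.07, edgeR adjusted p = 0.00822) and Sc5d (0.26 ± 0.09, edgeR adjusted p = 0.0467), but these 4 turned to -0.01, -0.00, -0.04 and -0.07 under that scaling. Without WT medium replicate 2 the calls of Fdft1, Mbtps2, Msmo1 and Sc5d were lost as well. Across all 23 alternatives, Sc5d lost its call in 15 besides that reversal, among them 10 of the 12 fits that each left out 1 library (edgeR adjusted p up to 0.27), and Mbtps2 in 7. Stard4 fell to 56.3, 53.7 and 65.5 CPM (-0.44 ± 0.12, edgeR adjusted p = 0.0141), Dhcr7 from 76.2, 59.5 and 67.7 CPM to 56.8, 45.0 and 51.2 CPM (-0.41 ± 0.10, edgeR adjusted p = 0.0114) and Srebf1 to 109, 105 and 117 CPM (-0.27 ± 0.09, edgeR adjusted p = 0.0399). The lower calls numbered 1 without WT LPS replicate 1 and 0 without WT LPS replicate 2. Over all genes those fits called 7.66% and 9.21% lower, against 16.3% with all libraries. Without KO medium replicate 1 the lower calls numbered 6, where 16.8% of all genes were lower. Across the 23 alternatives Srebf1 lost its call in 8, Stard4 in 2 and Dhcr7 in 1. For Srebf1 these included RLE scaling in place of TMM, DESeq2 and the pseudogene share as a covariate. The higher calls numbered 4 without WT medium replicate 2, where 11% of all genes were higher. Hmgcs1 (281, 245 and 301 CPM with LPS), Mvd (100.0, 84.1 and 101 CPM) and Sqle (294, 260.4 and 293 CPM) overlapped their levels in medium, with log2 differences of -0.07 ± 0.12, -0.02 ± 0.10 and -0.02 ± 0.08.

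In KO cells LPS was followed by higher levels of most of the enzymes. The 19 enzymes summed to 2403 ± 95.2 CPM with LPS against 1552 ± 55.6 CPM in medium, and the ranges, 2294 to 2471 and 1509 to 1615, did not overlap. Of the 27 genes 16 were higher and 1 lower, in a comparison where 25.3% of all genes were higher and 26.8% lower. The KO LPS libraries lay above all KO medium libraries for 18 genes (28.8% of all genes) and below them for 2, Ebp and Tm7sf2 (32.6% of all genes); the median was 0.39 for the 27 genes, -0.03 for all genes and 0.12 for protein-coding genes. Among the 16152 protein-coding genes, 6068 were higher and 3513 lower without overlap. Scaled by library size alone, the medians were 0.13 for the 27 and -0.29 for all genes, and 12 of the 27 were higher (15.8% of all genes). By role, 5 of 8 mevalonate enzymes, 7 of 11 sterol enzymes and 4 of 7 control genes were higher. WT and KO share no libraries in these 2 comparisons of LPS with medium: 8 genes were higher in both lines (Cyp51, Fdft1, Ggps1, Hsd17b7, Insig2, Mbtps2, Msmo1 and Sc5d), 8 were higher in KO and not called in WT (Fdps, Hmgcs1, Idi1, Insig1, Mvd, Nsdhl, Sqle and Srebf2), 3 were lower in WT and not called in KO (Dhcr7, Srebf1 and Stard4), and Tm7sf2 was lower in KO and not called in WT. Of the 19 genes with a CCAAT in a promoter window, 12 were higher with LPS in KO cells (25.3% of all genes). In medium 13 of the 19 were lower in KO than in WT (12.3% of all genes). Of the 4 genes whose windows lack it (Acat2, Mbtps1, Mbtps2 and Scap), 1 was higher and 1 was lower. The genes without a window (Fdps, Fdft1, Sqle and Stard4) were all lower in KO in medium, and all but Stard4 were higher with LPS in KO. A relation of the calls to CCAAT was not tested.

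Insig2 again had the largest rise, from 23.4, 20.4 and 25.8 CPM to 112, 56.7 and 108 CPM (1.99 ± 0.22, edgeR adjusted p = 5.56e-05), with replicate 2 well below the other KO LPS libraries. Hsd17b7 rose 2.67-fold, from 23.6, 26.1 and 25.5 CPM to 63.6, 72.7 and 64.6 CPM (1.42 ± 0.10, edgeR adjusted p = 1.4e-06). Msmo1 rose 2.09-fold, from 107, 112 and 118 CPM to 235, 229 and 238 CPM (1.06 ± 0.07, edgeR adjusted p = 7.24e-07). In these C4 demethylation genes the KO LPS libraries were close together and far from medium. Fdft1 rose from 63.3, 61.3 and 67.1 CPM to 124, 114 and 129 CPM (0.94 ± 0.08, edgeR adjusted p = 4.09e-06). Cyp51 rose from 209.8, 217 and 229 CPM to 371, 411 and 398 CPM (0.85 ± 0.08, edgeR adjusted p = 1.55e-05). Smaller rises on the sterol branch were those of Sc5d (0.77 ± 0.09, edgeR adjusted p = 8.32e-05), Sqle (0.57 ± 0.08, edgeR adjusted p = 0.000227) and Nsdhl (0.33 ± 0.07, edgeR adjusted p = 0.00243). Tm7sf2 was the 1 gene lower, at 1.09, 2.08 and 1.32 CPM after 2.14, 4.42 and 3.91 CPM (-1.22 ± 0.32, edgeR adjusted p = 0.00821). Of its 31-base words 13.3% are shared with other genes, among them Vps51.

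In the mevalonate pathway Hmgcs1 rose to 241, 251 and 279.6 CPM (0.74 ± 0.12, edgeR adjusted p = 0.000706) and Mvd to 96.0, 83.1 and 99.7 CPM (0.72 ± 0.10, edgeR adjusted p = 0.000217). Both then overlapped the WT LPS libraries. Ggps1 (0.69 ± 0.06, edgeR adjusted p = 5.62e-06), Idi1 (0.63 ± 0.10, edgeR adjusted p = 0.000557) and Fdps (0.39 ± 0.13, edgeR adjusted p = 0.0219) also rose. Acat2 (0.06 ± 0.09), Mvk (0.13 ± 0.08) and Pmvk (0.07 ± 0.13) did not pass the test. Among the control genes, Srebf2 rose from 553, 467 and 551 CPM to 848, 662 and 868 CPM (0.60 ± 0.12, edgeR adjusted p = 0.00292), Insig1, a feedback target of SREBP, rose from 162, 123 and 159 CPM to 198, 217 and 212 CPM (0.50 ± 0.12, edgeR adjusted p = 0.00671), and Mbtps2 rose by a log2 of 0.27 ± 0.10 (edgeR adjusted p = 0.0338). The calls of Mbtps2 and Fdps were weak: across 23 alternatives Mbtps2 lost its call in 12, with a log2 change down to 0.02, and Fdps in 10, down to 0.12, and both lost it without KO medium replicate 1, KO medium replicate 3 or KO LPS replicate 3. Scaled by library size alone, Nsdhl and Insig1 also lost their calls. Stard4 stayed at 16.7, 16.7 and 19.2 CPM (0.04 ± 0.12, 95% interval -0.22 to 0.29). The pseudogene share fell from 12.8% to 14.3% in KO medium to 6.64% to 7.35% in KO LPS, without overlap. With it as a covariate 7 genes remained higher (Cyp51, Fdft1, Ggps1, Hsd17b7, Insig2, Msmo1 and Sc5d). Calls fell over all genes as well, to 5.08% higher and 2.49% lower, from 25.3% and 26.8%.

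**Figure D3:**
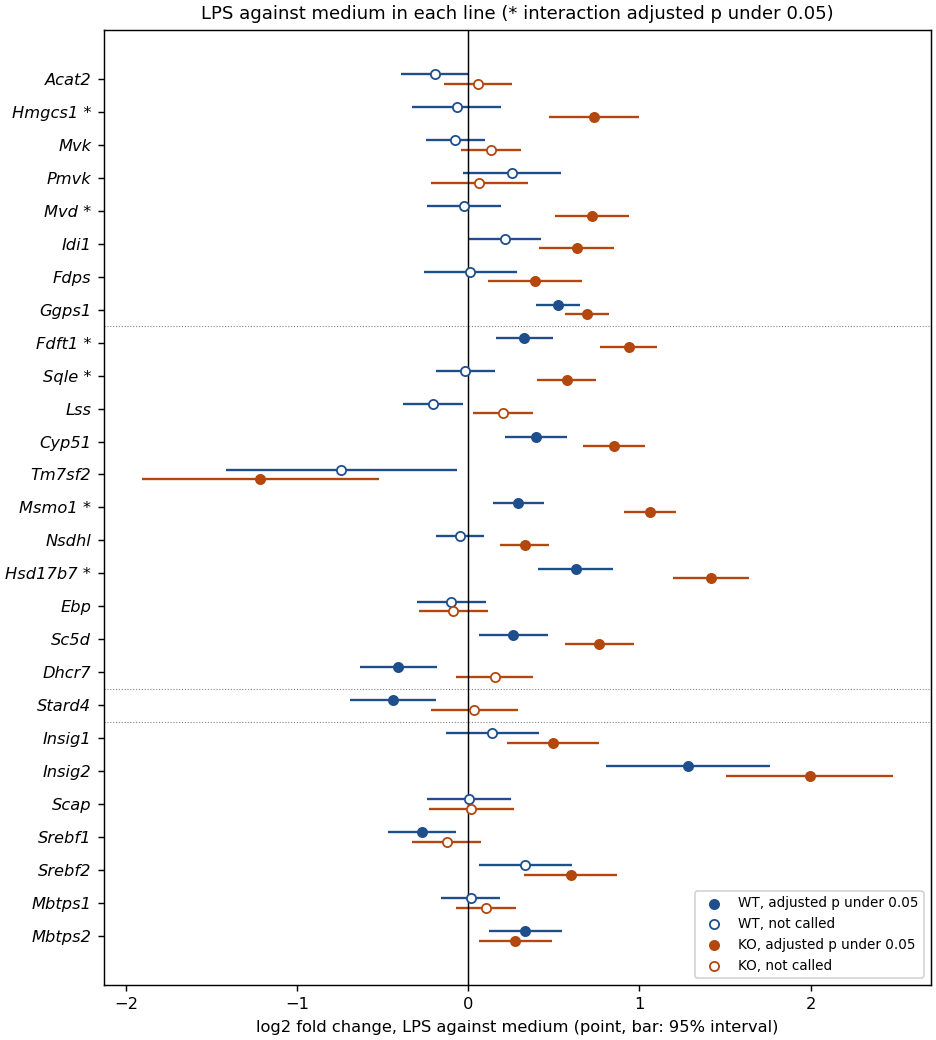
Log2 fold change of LPS against medium for each gene in WT and in KO cells, with 95% intervals; filled points passed the test and stars mark genes whose interaction passed it. The KO points lie above 0 for 16 called genes, and the WT points for 8, of which Fdft1, Mbtps2, Msmo1 and Sc5d fall below 0 when libraries are scaled by size alone.

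Under LPS the lines differed in fewer of these genes, and in both directions. The enzymes summed to 2412 ± 140 CPM in WT and 2403 ± 95.2 CPM in KO. Of the 27 genes 5 were lower and 5 higher in KO, where 12.7% of all genes tested were lower and 7.87% higher. In 7 genes every KO library was below every WT library (19.6% of all genes) and in 7 above (19.3%). Among the 16152 protein-coding genes, 3977 were below and 3831 above in this way. The median was -0.04 against 0.07 for all genes, or 0.03 against 0.14 with libraries scaled by size alone. Of the 18 genes that were lower in KO in medium, 5 were lower under LPS as well, 3 were higher and 10 were not called.

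The 5 lower in both conditions were Stard4, Srebf1, Acat2, Lss and Nsdhl. Stard4 was at 56.3, 53.7 and 65.5 CPM in WT LPS and 16.7, 16.7 and 19.2 CPM in KO LPS, 3.34-fold lower (-1.74 ± 0.12, edgeR adjusted p = 1.58e-06). Srebf1 was at 109, 105 and 117 CPM against 84.0, 67.8 and 85.1 CPM (-0.48 ± 0.09, edgeR adjusted p = 0.0027). Acat2 was at 175, 151 and 174 CPM against 113, 134 and 124 CPM (-0.44 ± 0.09, edgeR adjusted p = 0.00503), and Lss at 124, 115 and 122 CPM against 82.7, 98.5 and 91.2 CPM (-0.40 ± 0.08, edgeR adjusted p = 0.00365). Groups did not overlap for any of these 4, and each kept its call under all the alternatives tried. Nsdhl, at 69.3, 64.4 and 68.3 CPM against 54.6, 57.6 and 55.0 CPM (-0.27 ± 0.07, edgeR adjusted p = 0.0111), lost its call without WT LPS replicate 1 (edgeR adjusted p = 0.0512).

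The 5 genes higher in KO under LPS were Msmo1, Hsd17b7, Sqle, Insig2 and Mbtps2. Msmo1 was at 235, 229 and 238 CPM in KO LPS and 191, 179 and 185 CPM in WT LPS (0.34 ± 0.07, edgeR adjusted p = 0.00453), and was called under all the alternatives tried. Sqle was at 337, 338 and 362 CPM against 294, 260.4 and 293 CPM (0.29 ± 0.08, edgeR adjusted p = 0.0216). Hsd17b7 was at 63.6, 72.7 and 64.6 CPM against 60.0, 49.9 and 50.1 CPM (0.33 ± 0.10, edgeR adjusted p = 0.0357). These KO libraries lay above all WT libraries by small margins. Insig2 (0.77 ± 0.21, edgeR adjusted p = 0.0248) overlapped between the groups, because KO LPS replicate 2 at 56.7 CPM was below the highest WT LPS library at 59.9 CPM. Mbtps2 was at 123, 108 and 121 CPM against 98.9, 90.4 and 93.8 CPM (0.32 ± 0.10, edgeR adjusted p = 0.0392). Across 23 alternatives Mbtps2 lost its call in 8, Hsd17b7 in 7, Insig2 in 6 and Sqle in 2. The fit without a filter on low counts removed the calls of Mbtps2, Hsd17b7 and Insig2. RLE scaling in place of TMM and DESeq2 each removed that of Mbtps2, and fitting only the groups compared removed that of Insig2. The count of 5 fell to 1 without WT LPS replicate 2 or without KO LPS replicate 3, and to 2 without KO LPS replicate 1. It was 3 without WT LPS replicate 1 or replicate 3, and Msmo1 was the 1 gene called throughout. Those fits called 5.05% to 5.59% of all genes higher, against 7.87% with all libraries. The lower count rose to 8 without KO LPS replicate 2, where 11.7% of all genes were lower.

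Several enzymes with clear differences in medium had small ones under LPS. The log2 difference was -0.10 ± 0.12 for Hmgcs1 (95% interval -0.36 to 0.16), -0.03 ± 0.10 for Mvd (-0.24 to 0.18) and -0.04 ± 0.08 for Fdft1 (-0.21 to 0.13). These intervals lie above the log2 differences in medium of the same genes. Idi1 remained lower in every KO LPS library (261, 323 and 291 CPM against 376, 333 and 329.6 CPM) but did not pass the test (-0.25 ± 0.10, edgeR adjusted p = 0.107). Srebf2 was at 848, 662 and 868 CPM in KO and 695, 601 and 687 CPM in WT (0.26 ± 0.12, edgeR adjusted p = 0.179). Cyp51 (0.18 ± 0.08), Ebp (0.21 ± 0.09), Scap (0.31 ± 0.11) and Tm7sf2 (-0.77 ± 0.32) did not overlap between the groups and did not pass the test either. Ranges overlapped for the other 8 uncalled genes (Mvk, Pmvk, Fdps, Ggps1, Sc5d, Dhcr7, Insig1 and Mbtps1), whose log2 differences ran from -0.21 to 0.16.

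**Figure D4:**
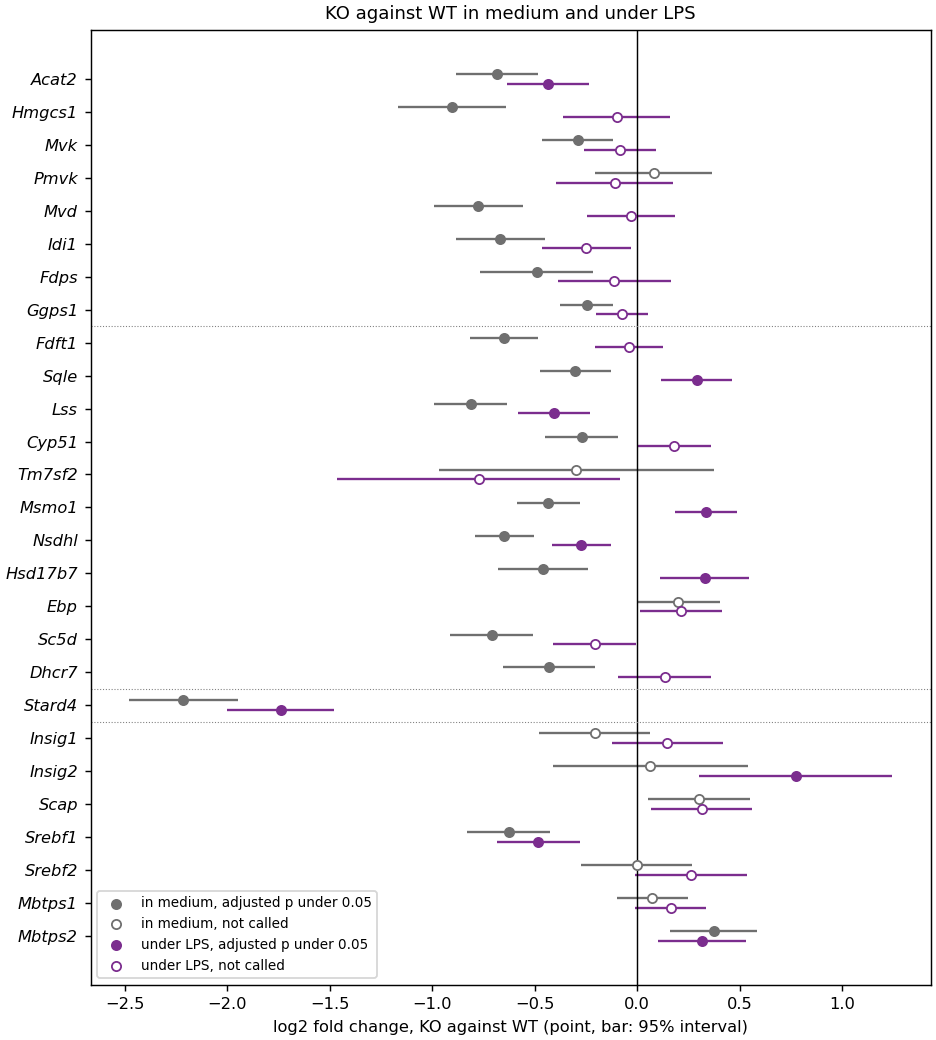
Log2 fold change of KO against WT for each gene, in medium and under LPS, with 95% intervals; filled points passed the test. In medium 18 points called lower lie left of 0, and under LPS 5 called points lie on each side, with Stard4 at -2.21 and -1.74 the farthest from 0.

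Whether the LPS effect itself differed between the lines was tested as an interaction, the log2 change with LPS in KO minus that in WT. It was positive for 24 of the 27 genes, with a median of 0.38 (-0.02 over all genes tested and 0.04 over protein-coding genes). For 6 genes it passed the test, all positive, in a comparison where 0.693% of all genes were called higher and 0.908% lower. Among protein-coding genes 1.09% were called higher and 1.25% lower. With 0 genes called negative by edgeR, 0 were negative at an unadjusted p under 0.05 and 0 by DESeq2. The 6 genes are enzymes: Hmgcs1 (0.80 ± 0.17, edgeR adjusted p = 0.0388) and Mvd (0.74 ± 0.14, edgeR adjusted p = 0.0231) of the mevalonate pathway, and Hsd17b7 (0.79 ± 0.14, edgeR adjusted p = 0.018), Msmo1 (0.77 ± 0.10, edgeR adjusted p = 0.00344), Fdft1 (0.61 ± 0.11, edgeR adjusted p = 0.0174) and Sqle (0.59 ± 0.11, edgeR adjusted p = 0.0245) of the sterol branch. All 6 were lower in KO in medium and rose with LPS in KO, and these comparisons share the KO medium libraries. Just outside the threshold were Nsdhl (0.38 ± 0.09, edgeR adjusted p = 0.077), Cyp51 (0.45 ± 0.12, edgeR adjusted p = 0.0918), Sc5d (0.50 ± 0.13) and Dhcr7 (0.56 ± 0.15), both at an edgeR adjusted p of 0.0957. The difference for Stard4 (0.48 ± 0.16, edgeR adjusted p = 0.224) and Insig2 (0.71 ± 0.30, edgeR adjusted p = 0.333) was not resolved, and Scap (0.01 ± 0.16), Ebp (0.01 ± 0.13) and Mbtps2 (-0.06 ± 0.14) lay near 0.

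The number called depended on single libraries. It was 12 without WT medium replicate 2, where 5.95% of all genes were called higher, against 0.693% with all libraries. It was 1 without WT LPS replicate 2, 2 without KO LPS replicate 1 or replicate 3, and 3 without WT LPS replicate 1 or replicate 3. Those fits called 0.252% to 0.38% of all genes higher. With the pseudogene share as a covariate it was 1 (0.276% of all genes). The number called thus moved over all genes and not in these genes alone. Over the same fits and the other alternatives, the log2 difference stayed at or above 0.72 for Hmgcs1, 0.66 for Mvd, 0.55 for Fdft1, 0.54 for Sqle and 0.73 for Hsd17b7, so these calls were lost at differences of similar size. Msmo1 was called in every one of these fits, and with the covariate its interaction was 0.78.

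**Figure D5:**
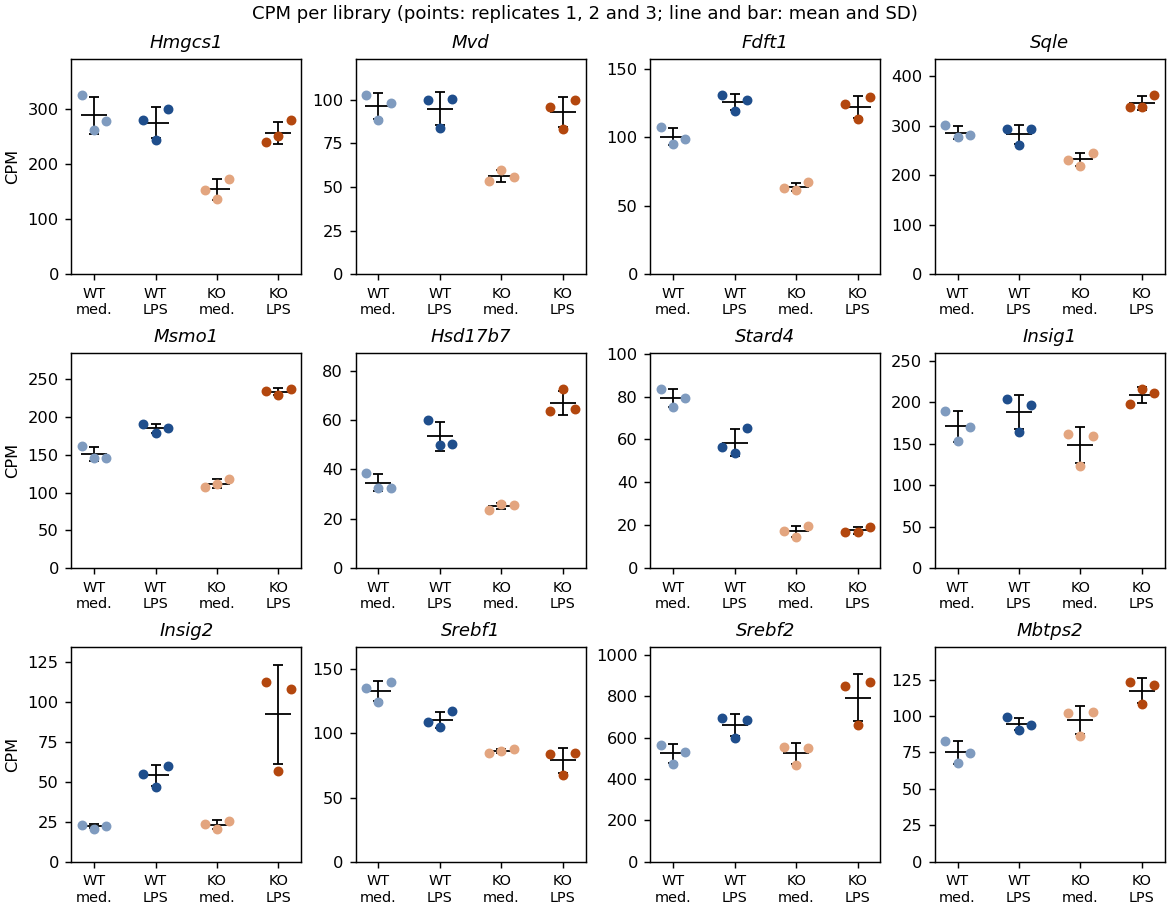
CPM of 12 of the genes in each of the 12 libraries (points), with the mean and SD of each group (n = 3) and 1 panel per gene on its own axis from 0. Hmgcs1, Mvd and Fdft1 are lowest in KO medium and overlap WT under LPS, Msmo1 lies above WT under LPS, and Stard4 stays at or below 19.4 CPM in KO cells with and without LPS.

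The rest of sterol and lipid metabolism was read from 4 further lists. Their genes are protein-coding, a class in which the shares called are mostly higher than over all genes. In that class 17.2% were lower and 7.67% higher in KO in medium, and 17.8% and 11.2% under LPS. With LPS 23.1% were higher and 13.6% lower in WT, and 33.2% and 17.1% in KO. Of 15 fatty acid synthesis genes tested, a group known as a target of SREBP-1, 8 were lower in KO in medium. That is 53.3% of the list, against 12.3% of all genes, and the median was -0.36. With the pseudogene share as a covariate 5 were lower, against 6.75% of all genes. Acss2, the cytosolic acetyl-CoA synthetase, was at 15.5, 15.0 and 15.8 CPM in WT medium and 3.64, 4.11 and 4.36 CPM in KO medium (-1.93 ± 0.11, edgeR adjusted p = 6.49e-07). The KO libraries stood far below every WT library. The fatty acid synthase Fasn (-0.82 ± 0.13, edgeR adjusted p = 0.00121) and Acly, which makes cytosolic acetyl-CoA from citrate (-0.64 ± 0.10, edgeR adjusted p = 0.000882), were lower too, and these 3 calls held under all the alternatives tried. Under LPS 3 of the 15 were lower and 1 higher (12.7% and 7.87% of all genes), with Acss2 at 13.1, 12.4 and 14.4 CPM in WT and 3.19, 3.38 and 3.39 CPM in KO (-2.00 ± 0.11, edgeR adjusted p = 3.45e-07) and Acly at -0.52 ± 0.10. Gpam, a glycerol-3-phosphate acyltransferase, was the 1 higher (0.27 ± 0.08, edgeR adjusted p = 0.0399), and its call was lost without WT LPS replicate 1 or 2, without KO LPS replicate 1 or 3, and under 4 other settings, DESeq2 among them.

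With LPS, 6 of these 15 genes were lower and 1 higher in WT cells (16.3% of all genes in each direction). In KO cells 4 were lower and 5 higher, or 26.7% and 33.3% of the list, near the 26.8% and 25.3% of all genes. Among protein-coding genes 17.1% were lower and 33.2% higher. The stearoyl-CoA desaturase Scd1 fell in both lines, by 2.49 ± 0.38 on the log2 scale in WT and by 2.79 ± 0.39 in KO, and its paralogue Scd2 fell by 1.22 ± 0.14 and by 0.90 ± 0.14. The 5 higher in KO became 1 without KO LPS replicate 2, without KO medium replicate 1 or without KO medium replicate 3, and 0 when the pseudogene share was a covariate. Those fits called 22.5%, 21.5%, 17.5% and 5.08% of all genes higher, in that order. Scaled by library size alone, 13 were lower in WT and 8 in KO, where 37.8% and 39.4% of all genes were lower. The interaction of the acyl-CoA synthetase Acsl3 passed the test (0.49 ± 0.10, edgeR adjusted p = 0.0411) and was lost in 10 of the 12 fits that each left out 1 library.

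Of 13 genes of sterol efflux and storage, 5 were lower in KO in medium (12.3% of all genes; median -0.50) and 7 under LPS (12.7% of all genes; median -0.39). Apoe, the lipid carrier secreted by microglia, was at 418, 313 and 340 CPM in WT medium and 224, 140.8 and 194 CPM in KO medium (-0.94 ± 0.27, edgeR adjusted p = 0.0366). The lysosomal cholesterol transporters Npc2 (-0.73 ± 0.19, edgeR adjusted p = 0.0195) and Npc1 (-0.53 ± 0.09, edgeR adjusted p = 0.00171) were lower with it. In medium the calls of Apoe and Npc2 were lost without WT medium replicate 1 or KO medium replicate 2, and those of all 3 when the pseudogene share was a covariate, which left 1 gene of this list lower, Nr1h3, named here after its values were seen. With that covariate 6.75% of all genes were lower in KO in medium. Under LPS, where the pseudogene shares of the lines overlapped, the cholesterol efflux pump Abca1 was at 40.4, 37.3 and 40.8 CPM in WT and 18.4, 12.6 and 15.6 CPM in KO (-1.35 ± 0.18, edgeR adjusted p = 0.000239), with Npc2 at -1.05 ± 0.19 and Apoe at -1.15 ± 0.28. Abca1 and Npc2 stayed lower under all the alternatives tried, and Apoe missed the threshold without WT LPS replicate 1 (edgeR adjusted p = 0.0514). LPS itself lowered 5 of the 13 and raised 2 in WT (16.3% of all genes in each direction, so the 2 are at the background), and lowered 7 in KO (26.8% of all genes). The retinoid X receptor Rxra fell by 1.16 ± 0.11 in WT and by 1.02 ± 0.11 in KO, and the cholesteryl ester hydrolase Nceh1 by 1.05 ± 0.13 and by 1.22 ± 0.13 on the log2 scale.

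Of 12 genes of sterol sensing and SREBP turnover, 1 was lower in KO in medium, which is 8.33%, below the 12.3% of all genes. Without WT medium replicate 2 the number was 4, in a fit where 19.1% of all genes were lower. The gene called with all 12 libraries was Rnf145, an endoplasmic reticulum ubiquitin ligase. It was at 64.5, 60.6 and 62.3 CPM in WT and 32.8, 33.5 and 33.6 CPM in KO (-0.91 ± 0.08, edgeR adjusted p = 2e-05). With LPS it was at 111, 99.8 and 121 CPM in WT and 94.0, 82.0 and 94.8 CPM in KO. The lines thus lay closer together with LPS, and the interaction was 0.61 ± 0.12 (edgeR adjusted p = 0.0269), lost without WT LPS replicate 1 or 2, without KO LPS replicate 1 or 3, and when the pseudogene share was a covariate. LPS raised 5 of the 12 in WT (16.3% of all genes) and 7 in KO (25.3% of all genes). With libraries scaled by size alone, 3 were higher and 2 lower in each line. Of all genes, that scaling called 7.96% higher and 37.8% lower in WT, and 15.8% and 39.4% in KO.

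Of 14 genes that use isoprenoids for prenylation, dolichol or ubiquinone, 3 were lower and 2 higher in KO in medium (12.3% and 6.88% of all genes), and 3 were lower and 3 higher under LPS (12.7% and 7.87% of all genes). The 3 lower are 21.4% of the list in each condition, near the 17.2% and 17.8% of protein-coding genes. The higher genes are 14.3% and 21.4% of the list, against 7.67% and 11.2% of protein-coding genes. Srd5a3, which completes dolichol (-0.55 ± 0.10, edgeR adjusted p = 0.00324), Rabggta, a subunit of the Rab prenylating enzyme (-0.49 ± 0.08, edgeR adjusted p = 0.00092), and Fntb, a subunit of farnesyltransferase (-0.49 ± 0.09, edgeR adjusted p = 0.00321), were the 3 lower in medium, and the same 3 genes were lower under LPS. With the pseudogene share as a covariate, Rabggta alone of these 3 was called in medium. LPS raised 6 of the 14 in WT (16.3% of all genes) and 7 in KO (25.3% of all genes), with Nus1, a subunit of the dolichol-forming enzyme, at 0.87 ± 0.10 in WT and 1.36 ± 0.10 in KO. Scaled by library size alone, 1 was higher and 5 lower in WT (7.96% and 37.8% of all genes). In KO 2 were higher and 2 lower under that scaling (15.8% and 39.4% of all genes).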

How the data were processed

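Stranded libraries were made from total RNA with a kit that removes ribosomal RNA, per the labels' protocols. The submitters' processing notes name FastQC 0.11.9, Trimmomatic 0.39, STAR 2.7.9a, featureCounts, DESeq2 1.32.0 and the build GRCm39, with neither role nor order. The deposited table holds raw counts per Ensembl gene as whole numbers; its annotation release, strand setting and treatment of multi-mapped reads are not given in any source used here. Symbols for 52083 of 55416 identifiers, transcript lengths and shared 31-base words came from GENCODE vM21 (GRCm38), and promoters from the RefSeq table of GRCm38.p6. Identifiers that have no symbol made up 6.49% of all counts and were fitted with the rest.

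Genes passing edgeR's filterByExpr (count minimum 10) were fitted with 4 group means over the 12 libraries, TMM scaling and robust quasi-likelihood estimation (edgeR 4.0.16, R 4.3.3). The 5 comparisons were adjusted by Benjamini-Hochberg over 26420 genes and called under 0.05. Standard errors are the coefficient divided by the square root of F. The biological coefficient of variation was 0.235, and depth ran from 39726866 to 72922794 counts per library. Members and lists were chosen with earlier results of these data known. All members are named; from each of the 4 further lists, the 3 called genes with the largest absolute change at a mean log2 CPM of at least 2 could be named. Thrsp and Ch25h did not pass the filter, and 56 of 57 entries of those lists matched. Alternatives were scaling, filter, tool (DESeq2 1.42.0), gene class, covariate, replicate block and left-out libraries. The scripts were also run on simulated counts with known changes in some genes. Those counts held no shift of the pseudogene share between groups, so that run cannot speak to its effect.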

Additional observations from a re-analysis of the deposited data

Results flagged for a closer look

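For 6 of the 27 genes the change with LPS differed between the lines by a test of that difference in edgeR, a larger change in KO cells in each case. The difference in log2 fold change was 0.80 for Hmgcs1, 0.74 for Mvd, 0.61 for Fdft1, 0.59 for Sqle, 0.77 for Msmo1 and 0.79 for Hsd17b7. In WT cells the log2 changes with LPS were -0.07 for Hmgcs1, -0.02 for Mvd, 0.33 for Fdft1, -0.02 for Sqle, 0.29 for Msmo1 and 0.63 for Hsd17b7, and in KO cells they were 0.74, 0.72, 0.94, 0.57, 1.06 and 1.42 in the same order. The part of the processed pseudogene share in these differences was not tested beyond its use as a covariate, under which Msmo1 kept its call (0.78) and Hmgcs1 (0.78), Mvd (0.71), Fdft1 (0.60), Sqle (0.60) and Hsd17b7 (0.80) lost theirs.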

How the results depend on the processing

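Of 3078 values of the 27 genes under the alternatives, 2845 kept their side of the threshold (131 of these changed sign with neither value called), 145 lost a call, 82 gained one and 6 reversed. The reversals were all LPS in WT scaled by library size alone: Fdft1 at -0.0098, Msmo1 at -0.043, Sc5d at -0.073, Mbtps2 at -0.0034, Scap at -0.33 and Mbtps1 at -0.32. That scaling gave 10 genes higher in KO under LPS (11.1% of all genes) and 10 positive interactions (1.36%). With LPS in WT it gave 3 higher and 14 lower (7.96% and 37.8% of all genes). With LPS in KO it gave 3 lower (39.4% of all genes). With the pseudogene share as a covariate, 0 were higher and 11 lower in KO in medium (2.11% and 6.75% of all genes). With LPS 5 were higher in WT (12.3%), and 7 were higher and 0 lower in KO (5.08% and 2.49%). The covariate left 1 positive interaction (0.276% of all genes). Without a filter, 2 were higher in KO under LPS (2.82% of all genes) and 5 higher and 5 lower with LPS in WT (6.02% and 7.46%). Among protein-coding genes, 2 were higher in KO in medium (11.7% of genes in that fit), 6 lower with LPS in WT (19.9%) and 3 lower with LPS in KO (25.9%). Fitting only the groups compared gave 0 higher in KO in medium (3.22% of all genes) and 6 lower with LPS in WT (13.6%). Without WT medium replicate 2 and KO LPS replicate 2 together, 8 were lower in KO under LPS (12.4% of all genes) and 10 positive interactions were called (5.03%). DESeq2 called 10 positive interactions (1.68% of all genes).

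Leaving out single libraries gave 0 to 1 higher and 16 to 18 lower in KO in medium, 1 to 6 higher and 4 to 8 lower in KO under LPS, 4 to 9 higher and 0 to 6 lower with LPS in WT, 14 to 16 higher and 1 lower with LPS in KO, and 1 to 12 positive interactions. Over all genes tested, those called higher in KO in medium ranged from 907 to 6110, and those with a positive interaction from 69 to 1606.

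Samples with the same replicate number deviated together in some pairs and not in others (correlations -0.366 to 0.391). With 3 libraries a group, this check cannot settle whether the numbers pair the samples. With the replicate number as a block, counts of higher and lower genes were 1 and 18 for KO in medium, 6 and 6 for KO under LPS, 10 and 4 for LPS in WT, 16 and 1 for LPS in KO, and 7 and 0 for the interaction. Shares of all genes were 9.15% and 14.3%, 9.62% and 14.7%, 18.4% and 15.1%, 27% and 28.3%, and 1.18% and 1.32% in that order. Depth limits Tm7sf2 (50 to 259 counts per library).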
